A study of Mus musculus with 6 samples.

Results

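10 genes of the signalling pathways that drive the hair cycle were followed through the CD45-negative cells of mouse skin: Shh, Ptch1 and Gli1 (Hedgehog), Wnt10a and Lef1 (Wnt), Bmp2, Bmp4 and Bmp6 (BMP), and Fgf18 and Fgf5 (FGF). They were chosen by name, as the 10 rows with these symbols among the 32285 genes of each matrix, and all 10 were present and had UMIs (unique molecular identifiers, which mark single captured RNA molecules). The study compared 3 groups of mice: UP_Del_Alopecia, mice that lack an enhancer upstream of Il2ra and had lost hair, UP_Del_No_Alopecia, mice with the same deletion and no hair loss, and WT. All were untreated adult females of 17 to 18 weeks, and the genotype field gives C57/BL6 for all of them, so the deletion is known from the group names alone. Il2ra encodes the alpha chain of the interleukin-2 receptor, which is best known from T cells. Whole skin was shaved, freed of the hypodermis and digested, and live CD45-negative cells, which hold keratinocytes and stroma, were captured with a 10x Genomics 5' kit as 1 library per group. The number of mice behind a library and the phase of the hair cycle at harvest are not given in the sources used here. With 1 library per group there is no replicate check, so no test was made, and every interval below covers counting error only.

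Hair follicles pass through growth (anagen), regression (catagen) and rest (telogen). In growing mouse follicles, matrix cells beside the dermal papilla make Shh, a secreted ligand whose receptor gene Ptch1 and effector gene Gli1 are themselves switched on by the signal. Wnt ligands act through Lef1, a transcription factor of hair shaft precursors and of the papilla. BMP ligands and Fgf18 are known for holding bulge stem cells at rest, while the papilla also makes Bmp4 and Bmp6, and Fgf5 is known for ending growth: mice without it have long hair.

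After filtering, 4817 UP_Del_Alopecia, 14447 UP_Del_No_Alopecia and 3293 WT cells remained, with median depths of 5658 UMIs in UP_Del_Alopecia, 5444 in UP_Del_No_Alopecia and 5007 in WT. Cells were clustered without the 10 genes, so their levels did not form the classes. Class names stand for "-like" classes, named by hand from marker and leading genes. Follicle keratinocytes fell into upper follicle (led by Cst6, Krt79 and Defb6 in one cluster and by Pdk4 and Fst in the other), bulge or outer root sheath (Krt24, Lhx2, Postn, Lgr5), companion layer (Krt6a, Cmah), inner root sheath (Krt71, Krt25, Krt73, with the cycling gene Pclaf and the matrix gene Dlx3) and hair shaft (Krt35, Krt87, S100a3). Dermal papilla cells were led by Wif1, Hhip and Vcan, and all 10 papilla markers were above the rest of the library in each library, as were all 10 fibroblast markers in fibroblasts. The companion class was the weakest: 5 of its 6 markers were above the rest in UP_Del_Alopecia, 4 in UP_Del_No_Alopecia and 1 in WT. In the inner root sheath class, which carries Shh, 8 of 8 were in UP_Del_Alopecia, 6 in UP_Del_No_Alopecia and 8 in WT, and they summed to 4790 CPM in UP_Del_Alopecia, 1945 CPM in UP_Del_No_Alopecia and 2944 CPM in WT. In the hair shaft class 9 of 12 markers were in UP_Del_Alopecia, 5 in UP_Del_No_Alopecia and 8 in WT. The cell filter removed 30.4% of barcodes in UP_Del_Alopecia, 7.56% in UP_Del_No_Alopecia and 26.7% in WT, mostly for mitochondrial UMIs over 10%, and the part of this loss in any difference between groups was not tested. Il2ra had 5 UMIs in UP_Del_Alopecia, 17 in UP_Del_No_Alopecia and 20 in WT over all barcodes of the CD45-negative libraries; in the CD45-positive ones it had 132.6 CPM in UP_Del_Alopecia, 150.2 CPM in UP_Del_No_Alopecia and 239.6 CPM in WT, lower in both UP_Del libraries than in WT. Pairs among the 6 libraries shared 24 to 228 barcodes, 0.719% to 2.58% of the smaller library.

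The libraries differed in how many cells each class held, and this touches every value summed over classes. Of the kept cells, 3.53% in UP_Del_Alopecia, 0.312% in UP_Del_No_Alopecia and 2.31% in WT were hair shaft. Inner root sheath cells made up 5.17% of UP_Del_Alopecia, 1.58% of UP_Del_No_Alopecia and 7.47% of WT. Dermal papilla cells made up 1.27% of UP_Del_Alopecia, 0.312% of UP_Del_No_Alopecia and 0.699% of WT. Each of these classes took a smaller share of the kept cells in UP_Del_No_Alopecia than in either other library. Such shares also depend on how many other cells were kept. Interfollicular basal cells made up 7.43% of UP_Del_Alopecia, 20.6% of UP_Del_No_Alopecia and 3.83% of WT. In whole libraries, fewer cells of a type and less RNA per cell cannot be told apart, so levels are given within classes, as CPM, the class's summed UMIs of a gene scaled to 1000000 UMIs of all genes.

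**Figure D1:**
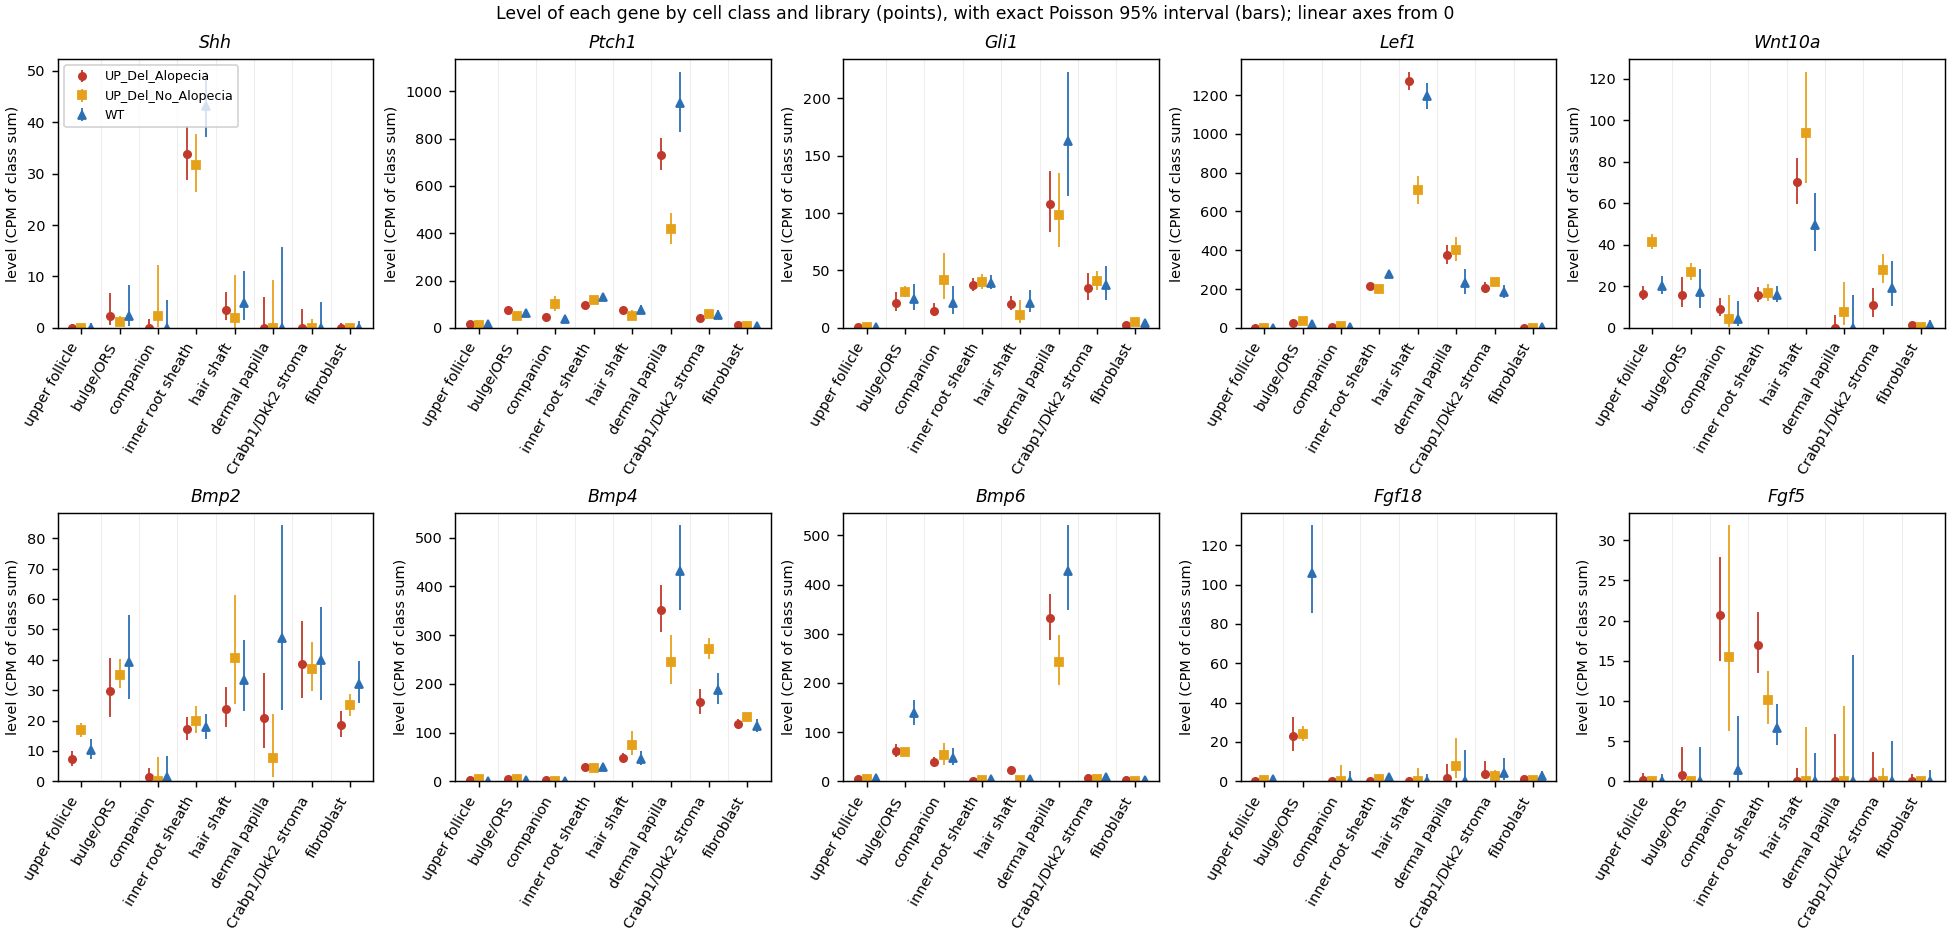
Level of each of the 10 genes (CPM of summed UMIs, linear axes from 0) in 5 follicle keratinocyte classes, dermal papilla, the unnamed Crabp1 and Dkk2 stroma and fibroblasts, for UP_Del_Alopecia, UP_Del_No_Alopecia and WT, with bars for the exact Poisson 95% interval. Shh is at its highest in the inner root sheath class, Ptch1, Bmp4 and Bmp6 in the papilla (Bmp4 in UP_Del_No_Alopecia in the Crabp1 and Dkk2 stroma), Lef1 in the hair shaft and Fgf18 in the bulge in each library.

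In all libraries Shh was almost confined to the inner root sheath class, which also holds cells led by cell cycle genes. Its level there was 33.7 CPM (161 UMIs, interval 28.7 to 39.4) in UP_Del_Alopecia, 31.7 CPM (126 UMIs, 26.4 to 37.8) in UP_Del_No_Alopecia and 43.2 CPM (187 UMIs, 37.2 to 49.8) in WT. These cells held 93.1% of the library's Shh UMIs in UP_Del_Alopecia, 91.3% in UP_Del_No_Alopecia and 96.4% in WT. WT was the highest of the 3, but the interval of each UP_Del library overlapped that of WT. No Shh UMI was found in upper follicle, papilla, fibroblast or interfollicular basal cells of any library; in the 999 UP_Del_Alopecia, 2203 UP_Del_No_Alopecia and 628 WT fibroblasts, the upper interval bound was 0.882 CPM in UP_Del_Alopecia, 0.482 CPM in UP_Del_No_Alopecia and 1.39 CPM in WT.

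Few cells carried these UMIs. Shh was seen in 28 of 249 inner root sheath cells in UP_Del_Alopecia, 15 of 228 in UP_Del_No_Alopecia and 12 of 246 in WT, against 0 fibroblasts in any library. Median depths were 18415 UMIs in UP_Del_Alopecia, 18299.5 in UP_Del_No_Alopecia and 16728.5 in WT for the inner root sheath, against 3825 in UP_Del_Alopecia, 3335 in UP_Del_No_Alopecia and 3876 in WT for fibroblasts. With each cell thinned to 1000 UMIs the shares were 2.45% in UP_Del_Alopecia, 1.34% in UP_Del_No_Alopecia and 1.69% in WT, against 0% of fibroblasts. The single highest cell held 58 Shh UMIs in UP_Del_Alopecia, 38 in UP_Del_No_Alopecia and 64 in WT. The 5 highest cells held 66.5% of the class total in UP_Del_Alopecia, 81.7% in UP_Del_No_Alopecia and 86.6% in WT. A few strongly expressing cells thus set the level in each library, and the Poisson interval, which treats UMIs as independent, is too narrow for it.

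Within the lower follicle, the Shh-positive cells sat in different subclusters in different libraries. Among 17 subclusters of 2695 bulge, companion, inner root sheath and hair shaft cells, the one led by the cell cycle genes Cenpf and Top2a had 22.3 CPM in UP_Del_Alopecia (37 UMIs, 79 cells), 16.3 CPM in UP_Del_No_Alopecia (26 UMIs, 98 cells) and 103.6 CPM in WT (170 UMIs, 92 cells). The subcluster led by F3, Slpi and Cxcl1 had the least in WT, with 46.7 CPM in UP_Del_Alopecia (120 UMIs), 34.1 CPM in UP_Del_No_Alopecia (79 UMIs) and 7.40 CPM in WT (16 UMIs). The one led by Krt73 and Krt71 had 13.7 CPM in UP_Del_Alopecia (11 UMIs, 81 cells), 107 CPM in UP_Del_No_Alopecia (22 UMIs, 26 cells) and 6.29 CPM in WT (4 UMIs, 65 cells), and was the highest subcluster of UP_Del_No_Alopecia. The cycling subcluster held 21.5% of the Shh UMIs of the subclustered cells in UP_Del_Alopecia and 19.3% in UP_Del_No_Alopecia, against 87.6% in WT. Over all 3 libraries the cycling subcluster held 46.5%, the F3 subcluster 42.9% and the Krt73 subcluster 7.39%. Of their cells, in that order, 94.8%, 89.4% and 99.4% came from the inner root sheath class. Most Shh UMIs thus lay outside the subcluster led by inner root sheath keratins. Among the leading genes of the F3 subcluster, Cxcl1 encodes a chemokine and Slpi a protease inhibitor. Since 5 cells carry most Shh UMIs, this split rests on a handful of cells per library.

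**Figure D2:**
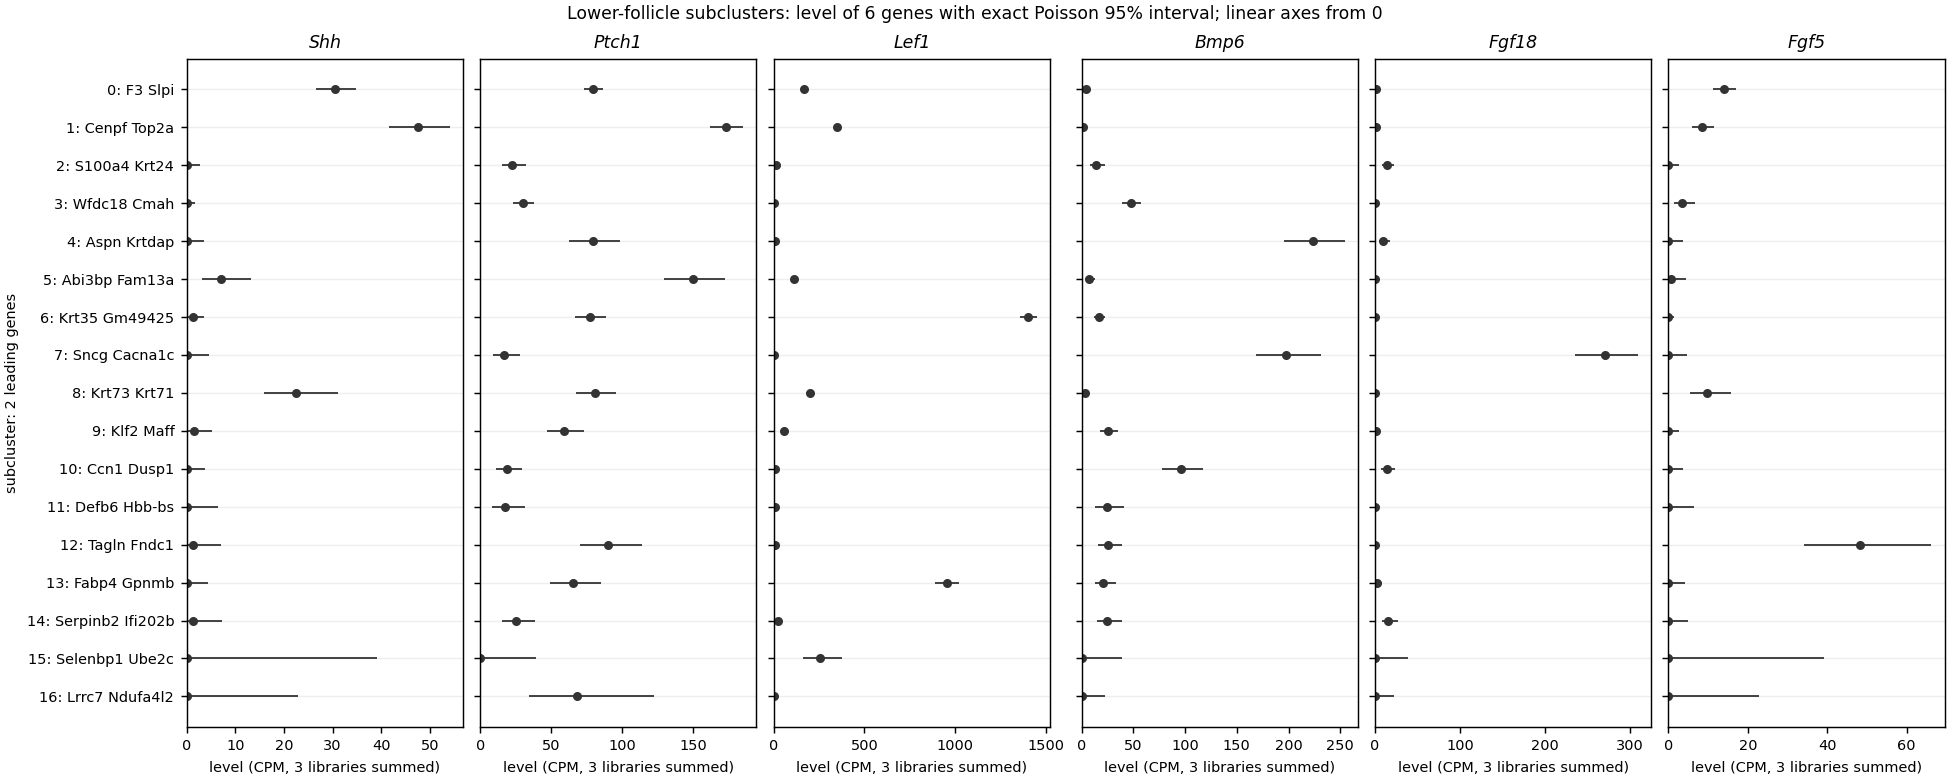
Level (CPM, the 3 libraries summed, linear axes from 0) of Shh, Ptch1, Lef1, Bmp6, Fgf18 and Fgf5 in 17 subclusters of lower follicle keratinocytes, each named by 2 of its leading genes, with bars for the exact Poisson 95% interval. In these sums Shh is highest in the cycling subcluster (of the single libraries, in WT alone), Lef1 in the Krt35 subcluster, Fgf18 in the Sncg subcluster and Fgf5 in the Tagln subcluster (of the single libraries, in UP_Del_Alopecia alone).

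Ptch1, the Hedgehog receptor and a target of the pathway, was highest in the dermal papilla of every library. Its level was 732 CPM in UP_Del_Alopecia (455 UMIs), 418 CPM in UP_Del_No_Alopecia (165 UMIs) and 949 CPM in WT (222 UMIs), with UMIs in 53 of 61 UP_Del_Alopecia, 38 of 45 UP_Del_No_Alopecia and 21 of 23 WT cells. UP_Del_No_Alopecia lay below both other libraries with no overlap of intervals, which were 666 to 802 CPM in UP_Del_Alopecia, 356 to 486 CPM in UP_Del_No_Alopecia and 829 to 1083 CPM in WT. The papilla level was 63.8 times that of fibroblasts in UP_Del_Alopecia, 44.4 times in UP_Del_No_Alopecia and 132 times in WT. After thinning to 1000 UMIs, a Ptch1 UMI was seen in 39.3% of UP_Del_Alopecia, 31.1% of UP_Del_No_Alopecia and 39.1% of WT papilla cells, against 1.15% of UP_Del_Alopecia, 1.003% of UP_Del_No_Alopecia and 0.824% of WT fibroblasts. The fibroblast level of 11.5 CPM in UP_Del_Alopecia, 9.42 CPM in UP_Del_No_Alopecia and 7.17 CPM in WT was under 5% of the papilla level, where free RNA could carry it.

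Among the follicle keratinocytes Ptch1 was highest in the inner root sheath class, which also held Shh, at 96.2 CPM in UP_Del_Alopecia, 118 CPM in UP_Del_No_Alopecia and 130.4 CPM in WT. In the cycling subcluster it reached 133 CPM in UP_Del_Alopecia, 182 CPM in UP_Del_No_Alopecia and 205 CPM in WT, and in a bulge subcluster led by Abi3bp and Fam13a 163 CPM in UP_Del_Alopecia, 145 CPM in UP_Del_No_Alopecia and 147 CPM in WT. Upper follicle cells stayed at 14.6 CPM in UP_Del_Alopecia, 12.5 CPM in UP_Del_No_Alopecia and 14.2 CPM in WT. Companion cells had 46.8 CPM in UP_Del_Alopecia, 99.3 CPM in UP_Del_No_Alopecia and 35.2 CPM in WT, and overlapped the inner root sheath in UP_Del_No_Alopecia. The order below the inner root sheath was not settled: hair shaft (74.7 CPM in UP_Del_Alopecia, 51.5 CPM in UP_Del_No_Alopecia and 76.2 CPM in WT) and bulge cells (73.2 CPM in UP_Del_Alopecia, 49.2 CPM in UP_Del_No_Alopecia and 61.0 CPM in WT) had overlapping intervals within each library. Among inner root sheath cells, Ptch1 UMIs were seen in 57.1% of Shh-positive cells against 64.3% of the others in UP_Del_Alopecia, in 73.3% against 59.6% in UP_Del_No_Alopecia and in 83.3% against 54.7% in WT, so the libraries did not share a direction.

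Gli1, the transcription factor that the pathway switches on, followed Ptch1 in the papilla, with 108 CPM in UP_Del_Alopecia (67 UMIs), 98.7 CPM in UP_Del_No_Alopecia (39 UMIs) and 162.5 CPM in WT (38 UMIs). The 3 intervals overlapped. In an unnamed stroma cluster led by Apod and Myoc, Gli1 had 110.8 CPM in UP_Del_Alopecia, 110.9 CPM in UP_Del_No_Alopecia and 91.6 CPM in WT. Its intervals overlapped those of the papilla, so that Gli1 did not single out the papilla. The inner root sheath class had 37.5 CPM in UP_Del_Alopecia, 40.0 CPM in UP_Del_No_Alopecia and 39.2 CPM in WT, and the upper follicle at most 0.934 CPM. Papilla cells with a Ptch1 UMI had a Gli1 UMI in 58.5% of cases in UP_Del_Alopecia (31 of 53), 60.5% in UP_Del_No_Alopecia (23 of 38) and 76.2% in WT (16 of 21). Of the few other papilla cells, 12.5% in UP_Del_Alopecia, 42.9% in UP_Del_No_Alopecia and 0% in WT had one, at like depths in the UP_Del libraries.

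Wnt10a, a secreted Wnt ligand of epidermis and hair placodes, was highest outside the named follicle classes. Interfollicular basal cells had 130.5 CPM in UP_Del_Alopecia, 123 CPM in UP_Del_No_Alopecia and 122 CPM in WT, and no library stood apart there. Cycling keratinocytes had 117 CPM in UP_Del_Alopecia, 129 CPM in UP_Del_No_Alopecia and 94.05 CPM in WT. Unnamed keratinocytes led by Sostdc1 had 82.1 CPM in UP_Del_Alopecia, 98.8 CPM in UP_Del_No_Alopecia and 74.7 CPM in WT. Neither class was placed in or out of the follicle. Among the named follicle classes Wnt10a was highest in the hair shaft. Its level there was 70.3 CPM in UP_Del_Alopecia (160 UMIs), 93.8 CPM in UP_Del_No_Alopecia (51 UMIs) and 49.5 CPM in WT (52 UMIs). The UP_Del_No_Alopecia interval, 69.9 to 123 CPM, lay above that of WT, 37.0 to 64.9 CPM. Upper follicle cells had 16.5 CPM in UP_Del_Alopecia, 41.4 CPM in UP_Del_No_Alopecia and 20.3 CPM in WT, so UP_Del_No_Alopecia again had the most. Papilla cells had 0 UMIs in UP_Del_Alopecia, 3 in UP_Del_No_Alopecia and 0 in WT.

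Lef1 was by far highest in the hair shaft, where 160 of 170 UP_Del_Alopecia, 44 of 45 UP_Del_No_Alopecia and 72 of 76 WT cells had a UMI. Its level was 1273 CPM (interval 1227 to 1320) in UP_Del_Alopecia, 710.1 CPM (641 to 785) in UP_Del_No_Alopecia and 1194 CPM (1129 to 1262) in WT. UP_Del_No_Alopecia was lower, and the other 2 libraries overlapped. UP_Del_No_Alopecia was also the lowest in the pair of larger shaft subclusters, where its values rest on fewer than 20 cells each. The one led by Krt35 had 1382 CPM in UP_Del_Alopecia, 1008 CPM in UP_Del_No_Alopecia and 1591 CPM in WT (117 UP_Del_Alopecia, 19 UP_Del_No_Alopecia and 43 WT cells). The one led by Fabp4 and Gpnmb had 1228 CPM in UP_Del_Alopecia, 538 CPM in UP_Del_No_Alopecia and 795 CPM in WT (36 UP_Del_Alopecia, 13 UP_Del_No_Alopecia and 18 WT cells), where WT also lay below UP_Del_Alopecia. After thinning, a Lef1 UMI was seen in 65.2% of UP_Del_Alopecia, 56.8% of UP_Del_No_Alopecia and 58.1% of WT shaft cells, against 0.210% of UP_Del_Alopecia, 0.0478% of UP_Del_No_Alopecia and 0.329% of WT fibroblasts.

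Below the shaft, Lef1 in the papilla stood at 376 CPM in UP_Del_Alopecia, 402 CPM in UP_Del_No_Alopecia and 231 CPM in WT. The inner root sheath had 218 CPM in UP_Del_Alopecia, 202 CPM in UP_Del_No_Alopecia and 279.7 CPM in WT. The Crabp1 and Dkk2 stroma had 204 CPM in UP_Del_Alopecia, 234 CPM in UP_Del_No_Alopecia and 184 CPM in WT. In both UP_Del libraries the papilla lay above the other 2 classes, whose intervals overlapped; in WT the inner root sheath was the highest of the 3, and the papilla interval overlapped both others. The bulge (24.4 CPM in UP_Del_Alopecia, 37.4 CPM in UP_Del_No_Alopecia and 21.9 CPM in WT) was far lower, and fibroblasts had no more than 1.51 CPM. Of Shh-positive inner root sheath cells, 96.4% had Lef1 against 74.7% of the others in UP_Del_Alopecia, 80.0% against 65.7% in UP_Del_No_Alopecia and 100% against 66.2% in WT. The Shh-positive cells were also deeper, with 21256 UMIs against 17728 in UP_Del_Alopecia, 19116 against 18052 in UP_Del_No_Alopecia and 22827 against 16648 in WT, and the part of depth was not tested. The Crabp1 and Dkk2 stroma held 4.65% of the library's Lef1 UMIs in UP_Del_Alopecia (229 cells), 24.2% in UP_Del_No_Alopecia (774 cells) and 4.97% in WT (186 cells).

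Of the BMP ligands, Bmp4 and Bmp6 were both high in the papilla. Bmp4 had 352 CPM (interval 307 to 402) in UP_Del_Alopecia, 245.5 CPM (199 to 300) in UP_Del_No_Alopecia and 432 CPM (352 to 525) in WT. Bmp6 had 331 CPM in UP_Del_Alopecia (206 UMIs), 243 CPM in UP_Del_No_Alopecia (96 UMIs) and 428 CPM in WT (100 UMIs) in the same cells. Both ligands took the order seen for Ptch1, with UP_Del_No_Alopecia lowest and below WT without overlap. The 2 genes parted elsewhere. Bmp4 was also made in fibroblasts (117 CPM in UP_Del_Alopecia, 131 CPM in UP_Del_No_Alopecia and 114 CPM in WT) and in the Crabp1 and Dkk2 stroma (163 CPM in UP_Del_Alopecia, 272 CPM in UP_Del_No_Alopecia and 188 CPM in WT), where UP_Del_No_Alopecia was the highest and its interval clear of the others; in that library it overlapped the papilla level. Bmp6 was at most 3.02 CPM in fibroblasts, and its papilla level was 115.5 times the fibroblast level in UP_Del_Alopecia, 169 times in UP_Del_No_Alopecia and 141.5 times in WT.

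In the epithelium Bmp4 was found in the hair shaft (47.4 CPM in UP_Del_Alopecia, 75.4 CPM in UP_Del_No_Alopecia and 46.6 CPM in WT) and inner root sheath (29.1 CPM in UP_Del_Alopecia, 27.7 CPM in UP_Del_No_Alopecia and 29.8 CPM in WT), and hardly in the bulge (4.58 CPM in UP_Del_Alopecia, 3.89 CPM in UP_Del_No_Alopecia and 2.30 CPM in WT). Bmp6 was instead highest in the bulge among these classes, with 61.8 CPM in UP_Del_Alopecia, 60.1 CPM in UP_Del_No_Alopecia and 138 CPM in WT. Its hair shaft level was 23.3 CPM in UP_Del_Alopecia, 1.84 CPM in UP_Del_No_Alopecia and 5.71 CPM in WT. Companion cells had 39.1 CPM in UP_Del_Alopecia, 53.0 CPM in UP_Del_No_Alopecia and 48.5 CPM in WT, and the inner root sheath 1.68 CPM in UP_Del_Alopecia, 2.27 CPM in UP_Del_No_Alopecia and 5.08 CPM in WT. In the bulge both UP_Del libraries, with intervals that reached at most 76.8 CPM, lay below WT, with 115 to 165 CPM. In the bulge subcluster led by Aspn and by Nfatc1, a gene of resting bulge stem cells, Bmp6 had 453 CPM in UP_Del_Alopecia, 183 CPM in UP_Del_No_Alopecia and 428 CPM in WT, and the one led by Sncg and Krt15 had 342 CPM in UP_Del_Alopecia, 170.1 CPM in UP_Del_No_Alopecia and 212 CPM in WT. In both of these UP_Del_No_Alopecia was the lowest, with an interval that overlapped WT in the Sncg subcluster. The Aspn subcluster held 17 UP_Del_Alopecia, 177 UP_Del_No_Alopecia and 14 WT cells.

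The 4 members that were high in the papilla, Ptch1, Bmp4, Bmp6 and Lef1, are shown with the 250 bases before a RefSeq start site (build GRCm38.p6, read along the gene's strand, 5′ to 3′), to set out what their promoters hold. Of the 10 members, 6 had an entry in the promoter table: these 4, Fgf18 and Fgf5. Shh, Gli1, Wnt10a and Bmp2 are named only. Ptch1 is taken from chr13:63565736-63565985 on the minus strand, Bmp4 from chr14:46390670-46390919 on the minus strand, Bmp6 from chr13:38345466-38345715 on the plus strand and Lef1, at the first of its 4 listed starts, from chr3:131110047-131110296 on the plus strand. Capitals mark a GC box (GGGCGG, or CCGCCC on the other strand).
Ptch1: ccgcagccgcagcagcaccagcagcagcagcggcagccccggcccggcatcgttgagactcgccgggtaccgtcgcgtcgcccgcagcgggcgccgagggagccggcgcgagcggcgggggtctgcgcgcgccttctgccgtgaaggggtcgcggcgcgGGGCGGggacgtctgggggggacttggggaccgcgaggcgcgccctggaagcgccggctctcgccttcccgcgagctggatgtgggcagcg
Bmp4: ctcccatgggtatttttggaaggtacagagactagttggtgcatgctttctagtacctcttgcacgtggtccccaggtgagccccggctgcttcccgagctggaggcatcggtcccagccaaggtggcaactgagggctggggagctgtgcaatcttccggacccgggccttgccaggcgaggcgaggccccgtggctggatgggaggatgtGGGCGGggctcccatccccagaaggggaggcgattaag
Bmp6: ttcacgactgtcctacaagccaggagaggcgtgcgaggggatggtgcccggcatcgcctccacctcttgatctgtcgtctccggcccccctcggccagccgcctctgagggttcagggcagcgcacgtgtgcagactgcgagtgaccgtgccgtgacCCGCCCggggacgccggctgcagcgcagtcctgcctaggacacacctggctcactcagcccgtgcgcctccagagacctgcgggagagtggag
Lef1: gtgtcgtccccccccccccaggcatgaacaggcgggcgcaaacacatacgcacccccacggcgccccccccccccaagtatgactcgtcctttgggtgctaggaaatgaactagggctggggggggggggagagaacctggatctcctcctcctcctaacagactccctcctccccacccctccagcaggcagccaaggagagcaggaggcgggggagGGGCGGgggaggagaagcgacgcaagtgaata

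Each of these windows held 1 GC box, and 32.7% of the 32851 mouse promoters of that length held at least 1. A match to the GLI consensus TGGGTGGTC was found on neither strand in any of the 6 members' windows, against 0.225% of all promoters, and the LEF/TCF words CTTTGAT (3.21% of promoters) and CTTTGAA (4.46%) were not found either. No motif overlapped another there, and a missing match says only that these letters are absent here. The genes lie, in GRCm38 with the GENCODE vM21 annotation, at chr13:63508328-63573598 (Ptch1), chr14:46383520-46390669 (Bmp4), chr13:38345107-38500302 (Bmp6) and chr3:131110471-131224356 (Lef1). Ptch1 overlaps A930032L01Rik and Lef1 overlaps Gm42449 on the same strand, where reads could be assigned to either. The others lie at chr5:28456815-28467256 (Shh), chr10:127329882-127341974 (Gli1), chr1:74791516-74804179 (Wnt10a), chr2:133552159-133562885 (Bmp2), chr11:33117430-33147400 (Fgf18) and chr5:98254184-98277030 (Fgf5).

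Bmp2 was spread thinly and had no clear peak in the papilla. The bulge had 29.7 CPM in UP_Del_Alopecia, 35.1 CPM in UP_Del_No_Alopecia and 39.2 CPM in WT, and the hair shaft 23.7 CPM in UP_Del_Alopecia, 40.5 CPM in UP_Del_No_Alopecia and 33.3 CPM in WT, with intervals that overlap in both. Fibroblasts had 18.4 CPM in UP_Del_Alopecia, 24.98 CPM in UP_Del_No_Alopecia and 32.1 CPM in WT. In fibroblasts the UP_Del_Alopecia interval, 14.5 to 23.02 CPM, lay below that of WT, 25.6 to 39.7 CPM. Papilla cells had 13 UMIs in UP_Del_Alopecia, 3 in UP_Del_No_Alopecia and 11 in WT. In the shaft, the subcluster led by Fabp4 and Gpnmb was the richest, at 117 CPM in UP_Del_Alopecia, 85.6 CPM in UP_Del_No_Alopecia and 123 CPM in WT. Interfollicular basal cells had 35.9 CPM in UP_Del_Alopecia, 53.9 CPM in UP_Del_No_Alopecia and 101 CPM in WT, and there the 3 intervals were clear of each other.

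Fgf18, a ligand that keeps bulge stem cells at rest, was a bulge gene: bulge cells gave 60% of its UMIs in UP_Del_Alopecia, 67.7% in UP_Del_No_Alopecia and 77.3% in WT. Its level was 22.9 CPM (30 UMIs, interval 15.4 to 32.7) in UP_Del_Alopecia, 24.1 CPM (149 UMIs, 20.4 to 28.3) in UP_Del_No_Alopecia and 106 CPM (92 UMIs, 85.4 to 130) in WT. WT was above both UP_Del libraries, which overlapped each other. UMIs were seen in 17 of 166 UP_Del_Alopecia, 96 of 1047 UP_Del_No_Alopecia and 30 of 135 WT bulge cells, against 0 companion cells in any library. Thinned to 1000 UMIs, the shares of bulge cells were 1.21% in UP_Del_Alopecia, 3.99% in UP_Del_No_Alopecia and 5.19% in WT, against 0% of companion cells. Thinned shares kept the order of the levels, but their intervals overlapped in all libraries. That of UP_Del_No_Alopecia, 2.88% to 5.37%, lay within that of WT, 2.11% to 10.4%. The UP_Del_Alopecia share rests on 2 cells.

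Most Fgf18 UMIs came from 1 bulge subcluster. The one led, after Fgf18 itself, by Sncg, Cacna1c and Krt15 held 58.1% of the Fgf18 UMIs of the subclustered cells in UP_Del_Alopecia, 71.9% in UP_Del_No_Alopecia and 86.1% in WT. It had 236 CPM (18 UMIs) in UP_Del_Alopecia, 220 CPM (110 UMIs) in UP_Del_No_Alopecia and 401 CPM (87 UMIs) in WT, with intervals of 140.1 to 374 CPM in UP_Del_Alopecia, 181 to 265 CPM in UP_Del_No_Alopecia and 321 to 494 CPM in WT. Within it, WT was therefore above UP_Del_No_Alopecia, and its interval overlapped that of UP_Del_Alopecia. The subcluster took 14 of 166 bulge cells in UP_Del_Alopecia, 124 of 1047 in UP_Del_No_Alopecia and 37 of 135 in WT, so the Fgf18 level of the whole bulge moved with the number of these cells as well as with the level within them. Bulge cells with Fgf18 had a Bmp6 UMI in 17.6% of cases against 14.8% of other bulge cells in UP_Del_Alopecia, 32.3% against 16.1% in UP_Del_No_Alopecia and 43.3% against 21.9% in WT, at depths no greater than theirs.

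Fgf5, the ligand that ends growth, was found mainly in the companion layer and inner root sheath. No UMI was seen in papilla, fibroblast, hair shaft or Crabp1 and Dkk2 stroma cells of any library. In UP_Del_No_Alopecia, Schwann or glial cells (159 cells) held 8 of the 56 Fgf5 UMIs of all kept cells, against 7 in companion cells. As CPM, these 8 UMIs put Schwann or glial cells above the companion layer and inner root sheath of UP_Del_No_Alopecia. The Schwann or glial class held 0 in UP_Del_Alopecia and 0 in WT. The companion layer had 20.8 CPM (43 UMIs, 18 of 203 cells) in UP_Del_Alopecia, 15.4 CPM (7 UMIs, 4 of 58 cells) in UP_Del_No_Alopecia and 1.47 CPM (1 UMI, 1 of 72 cells) in WT. The inner root sheath had 17.0 CPM in UP_Del_Alopecia (81 UMIs), 10.1 CPM in UP_Del_No_Alopecia (40 UMIs) and 6.69 CPM in WT (29 UMIs). UP_Del_Alopecia was above WT without overlap in both classes, while UP_Del_No_Alopecia overlapped WT in both. The WT companion value is the least certain, as 1 of 6 companion markers was above the rest in that library. In the inner root sheath the cells with an Fgf5 UMI were 27 of 249 in UP_Del_Alopecia, 26 of 228 in UP_Del_No_Alopecia and 21 of 246 in WT. The 5 highest of these cells held 59.3% of the UMIs in UP_Del_Alopecia, 37.5% in UP_Del_No_Alopecia and 37.9% in WT, and in UP_Del_Alopecia 1 cell held 22 of the 81 and 5 companion cells held 60.5% of theirs. A few cells thus carry much of the UP_Del_Alopecia level in both classes. The subcluster that was richest in UP_Del_Alopecia, led by genes that include Tagln and Acta2, known from contractile cells, and with 95.8% of its cells from the companion class, had 73.3 CPM in UP_Del_Alopecia (33 UMIs, 36 cells), 25.4 CPM in UP_Del_No_Alopecia (5 UMIs, 23 cells) and 0 CPM in WT (13 cells, upper bound 26.3 CPM). UP_Del_No_Alopecia had more, at 43.9 CPM (9 UMIs, 26 cells), in the subcluster led by Krt73 and Krt71. In fibroblasts, where no cell had a UMI, the thinned share was 0% in each library, against 1.49% of UP_Del_Alopecia, 3.45% of UP_Del_No_Alopecia and 0% of WT companion cells.

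The 3 comparisons between groups ask how the follicle's signals differ with the deletion and with hair loss. A gene counts as past the fold at 1.5-fold either way, given 20 UMIs or more in both libraries together, and the share of all genes past it gives the background. In follicle keratinocytes joined (1525 UP_Del_Alopecia, 3259 UP_Del_No_Alopecia and 1120 WT cells), 4 of the 10 genes were higher and 2 lower in UP_Del_Alopecia than in UP_Del_No_Alopecia, where 26.2% of all genes were past the fold, 15.2% higher and 11% lower. Lef1 was higher by a log2 ratio of 2.10 (254 CPM in UP_Del_Alopecia, 59.2 CPM in UP_Del_No_Alopecia), Fgf5 by 2.02 (8.05 CPM in UP_Del_Alopecia, 1.98 CPM in UP_Del_No_Alopecia), Shh by 0.98 (10.99 CPM in UP_Del_Alopecia, 5.57 CPM in UP_Del_No_Alopecia) and Bmp4 by 0.81 (17.1 CPM in UP_Del_Alopecia, 9.74 CPM in UP_Del_No_Alopecia). Fgf18 was lower, with a ratio of -1.65 (2.11 CPM in UP_Del_Alopecia, 6.60 CPM in UP_Del_No_Alopecia), as was Bmp2, with -0.69 (13.8 CPM in UP_Del_Alopecia, 22.2 CPM in UP_Del_No_Alopecia).

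These sums depend on how many cells each class gave. With the 5 follicle classes weighted equally, an alternative added after seeing the data, 2 of the 10 genes were past the fold, where 18.3% of all genes were. Lef1 kept a log2 ratio of 0.66 and Fgf5 one of 0.60, while Shh came to 0.10, Fgf18 to -0.12 and Bmp4 to -0.39, the other direction. Within single classes, Lef1 differed in the hair shaft (0.84, interval 0.69 to 1.00) and Fgf5 in the inner root sheath (0.75, 0.19 to 1.34), and Shh did not differ past the fold in the inner root sheath (0.09, -0.26 to 0.44).

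Against WT, the summed follicle of UP_Del_Alopecia had 1 gene higher and 2 lower, with 10.5% of all genes past the fold, 5.9% higher and 4.57% lower. Fgf5 was higher by 1.59 (8.05 CPM in UP_Del_Alopecia, 2.67 CPM in WT), Fgf18 was lower at -2.18 (2.11 CPM in UP_Del_Alopecia, 9.54 CPM in WT), and Shh was lower at -0.65 (10.99 CPM in UP_Del_Alopecia, 17.3 CPM in WT). With equal weights Fgf18 stayed at -2.21 and Fgf5 at 2.25, Bmp6 came to -0.65, and Shh to -0.35, within the fold; 11.5% of all genes were past it. In the bulge alone Fgf18 had a ratio of -2.21 (-2.86 to -1.60) and Bmp6 one of -1.16 (-1.59 to -0.74). Both ligands were thus lower in the bulge of UP_Del_Alopecia taken whole than in that of WT. For Bmp6 the mix of subclusters moved with this: in the Aspn and Sncg subclusters its intervals in UP_Del_Alopecia and WT overlapped, with the value of UP_Del_Alopecia the higher in both, and these took 17 and 14 of 166 bulge cells in UP_Del_Alopecia, against 14 and 37 of 135 in WT.

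UP_Del_No_Alopecia against WT had 1 gene higher and 4 lower in the summed follicle, with 25.4% of all genes past the fold, 11.1% higher and 14.3% lower. Lef1 was lower at -1.90 (59.2 CPM in UP_Del_No_Alopecia, 222 CPM in WT), Shh at -1.64 (5.57 CPM in UP_Del_No_Alopecia, 17.3 CPM in WT), Bmp4 at -0.78 (9.74 CPM in UP_Del_No_Alopecia, 16.7 CPM in WT) and Ptch1 at -0.75 (41.6 CPM in UP_Del_No_Alopecia, 69.8 CPM in WT), and Wnt10a was higher at 0.76 (34.2 CPM in UP_Del_No_Alopecia, 20.1 CPM in WT). Equal weights, with 17.7% of all genes past the fold, gave -0.64 for Lef1, -0.44 for Shh, 0.47 for Bmp4, 0.06 for Ptch1 and 0.77 for Wnt10a, and moved Fgf18 to -2.09, Bmp6 to -0.74 and Fgf5 to 1.65. Summed, Bmp6 had been at 0.08, Fgf5 at -0.43 and Gli1 at -0.40 (0.19 with equal weights). Bmp4, Ptch1, Bmp6, Fgf5 and Gli1 thus all changed direction with the weighting. Equal-weight Fgf5 ratios against WT take in the companion class, the weakest by markers in WT. In the bulge, Fgf18 (-2.13, -2.52 to -1.74) and Bmp6 (-1.20, -1.50 to -0.89) were lower than in WT as they were in UP_Del_Alopecia; the 2 comparisons share the WT library.

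**Figure D3:**
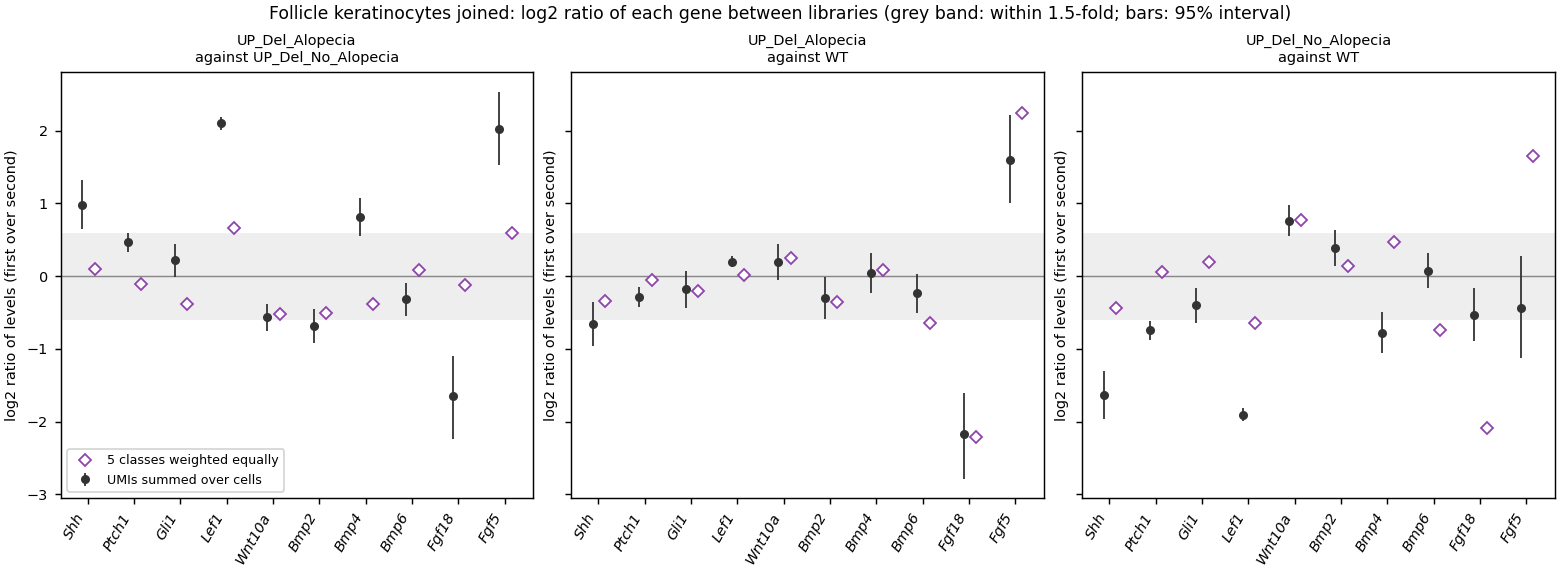
Log2 ratio between libraries for the 10 genes in follicle keratinocytes joined, in 3 panels: UP_Del_Alopecia against UP_Del_No_Alopecia, UP_Del_Alopecia against WT, and UP_Del_No_Alopecia against WT. Black points are UMIs summed over cells with the 95% interval, purple diamonds are the 5 classes weighted equally and the grey band is 1.5-fold; Lef1 at 2.10 summed falls to 0.66 with equal weights in the first panel, while Fgf18 stays near -2.2 in the second.

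Class by class, the count of members past the fold varied. In the inner root sheath 1 of 8 counted members was past it in UP_Del_Alopecia against UP_Del_No_Alopecia (background 14.1% of all genes), 2 of 9 in UP_Del_Alopecia against WT (9.42%) and 2 of 9 in UP_Del_No_Alopecia against WT (14.9%). Fgf5 stood in all 3 of these counts, with log2 ratios, in the same order of comparisons, of 0.75, 1.34 (0.71 to 2.01) and 0.59 (-0.14 to 1.33). Bmp6, with 8 UMIs in UP_Del_Alopecia, 9 in UP_Del_No_Alopecia and 22 in WT, stood in both counts against WT. Its levels there were ones that free RNA could carry in each library. In the hair shaft 5 of 7 (30.1%), 1 of 7 (16.1%) and 4 of 6 (26.2%) were past it. There Lef1 lay at 0.84 and -0.75 (-0.92 to -0.58) in the comparisons with UP_Del_No_Alopecia, and Wnt10a at 0.92 (0.34 to 1.51) in UP_Del_No_Alopecia against WT.

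In the bulge 2 of 8 (20.8%), 2 of 7 (24.2%) and 5 of 8 (24.2%) were past the fold in the same comparisons. Lef1 had ratios of -0.62 and 0.77, and Wnt10a of -0.76 and 0.65, in the comparisons of UP_Del_Alopecia against UP_Del_No_Alopecia and of UP_Del_No_Alopecia against WT, so that both Wnt members were highest in UP_Del_No_Alopecia. With classes from marker UMIs this did not hold: UP_Del_Alopecia against UP_Del_No_Alopecia turned to 0.67 for Lef1 and 0.27 for Wnt10a, and UP_Del_No_Alopecia against WT to -0.24 for Lef1. Bulge Lef1 in UP_Del_Alopecia and in WT was at levels that free RNA could carry. The upper follicle had 3 of 5 (20.1%), 0 of 4 (10.2%) and 3 of 5 (17.7%), the 3 being Wnt10a, Bmp2 and Bmp4. Upper follicle Bmp4 was at levels that free RNA could carry in each library. Wnt10a was lower in UP_Del_Alopecia than in UP_Del_No_Alopecia at -1.33 (-1.67 to -0.998), and higher in UP_Del_No_Alopecia than in WT at 1.03 (0.70 to 1.37). The class joins 2 clusters, and the one led by Pdk4 and Fst made up 20.6% of it in UP_Del_Alopecia, 44.9% in UP_Del_No_Alopecia and 32.7% in WT. Within that cluster Wnt10a had 52.4 CPM (interval 41.1 to 65.7) in UP_Del_Alopecia, 71.0 CPM (65.04 to 77.4) in UP_Del_No_Alopecia and 42.7 CPM (33.4 to 53.8) in WT, so that UP_Del_No_Alopecia overlapped UP_Del_Alopecia and stayed above WT. In the cluster led by Cst6 it was at 3.16 CPM in UP_Del_Alopecia, 4.46 CPM in UP_Del_No_Alopecia and 5.78 CPM in WT. Bmp2 in the class was at 7.29 CPM in UP_Del_Alopecia, 16.9 CPM in UP_Del_No_Alopecia and 10.3 CPM in WT, and in the Pdk4 and Fst cluster at 19.8 CPM in UP_Del_Alopecia, 26.9 CPM in UP_Del_No_Alopecia and 22.5 CPM in WT, with intervals that overlap. Bmp4 intervals overlapped in that cluster too.

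The companion layer had 3 of 5 (27.1%), 2 of 5 (22.8%) and 2 of 3 (29.1%), among them Ptch1 at -1.08 and 1.495 in the comparisons with UP_Del_No_Alopecia, which gave 58 cells. The Crabp1 and Dkk2 stroma had 2 of 6 (22.2%), 1 of 6 (21%) and 0 of 6 (23.7%), where Bmp4 was lower in UP_Del_Alopecia than in UP_Del_No_Alopecia at -0.74 (-0.997 to -0.49). In most of these classes the share of members past the fold rests on fewer than 10 genes.

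In the dermal papilla (61 UP_Del_Alopecia, 45 UP_Del_No_Alopecia and 23 WT cells), 1 of 5 genes with enough counts was past the fold in UP_Del_Alopecia against UP_Del_No_Alopecia, where 28.9% of all genes were. That gene was Ptch1, with a log2 ratio of 0.81 (0.55 to 1.08). It came to 0.53 with at most 5% mitochondrial UMIs and 0.54 with no cell filter. Doublet removal at 0.8% took most of the UP_Del_No_Alopecia papilla cells. It left that library and WT under 20 papilla cells each, so no ratio was given there. The part of doublets in the papilla differences was not tested. Bmp4 (0.52), Bmp6 (0.45), Gli1 (0.13) and Lef1 (-0.10) stayed within the fold. The papilla cells held almost no leukocyte RNA, with 9 of 10 leukocyte markers at 0 in each library. Basal keratinocyte markers summed to 93.3 CPM in UP_Del_Alopecia, 711 CPM in UP_Del_No_Alopecia and 671 CPM in WT. Inner root sheath markers summed to 212 CPM in UP_Del_Alopecia, 27.8 CPM in UP_Del_No_Alopecia and 25.7 CPM in WT, with 2 of 8 at 0 in UP_Del_Alopecia, 6 in UP_Del_No_Alopecia and 6 in WT. Fibroblast markers summed to 4414 CPM in UP_Del_Alopecia, 6410 CPM in UP_Del_No_Alopecia and 3793 CPM in WT, with 1 of 10 at 0 in UP_Del_Alopecia, 0 in UP_Del_No_Alopecia and 1 in WT. The papilla's own markers summed to 10477 CPM in UP_Del_Alopecia, 7703 CPM in UP_Del_No_Alopecia and 9506 CPM in WT. UP_Del_No_Alopecia, with the lowest Ptch1, Bmp4 and Bmp6, thus had the most fibroblast and the least papilla marker RNA, and the part of any of these lists in the differences was not tested.

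Against WT, UP_Del_Alopecia had 3 of 6 papilla genes past the fold, with 31.2% of all genes past it, and UP_Del_No_Alopecia had 5 of 5, with 35.2% of all genes past it. Lef1 was higher than in WT in both, by 0.70 (0.27 to 1.16) in UP_Del_Alopecia and 0.80 (0.35 to 1.27) in UP_Del_No_Alopecia. Ptch1, at -1.19 (-1.48 to -0.89), Gli1 at -0.72, Bmp4 at -0.82 and Bmp6 at -0.82 were lower in UP_Del_No_Alopecia, and in UP_Del_Alopecia Gli1 (-0.59) and Bmp2 (-1.17, with 13 UMIs in UP_Del_Alopecia and 11 in WT) were lower. The WT papilla held 23 cells, and its 5 richest cells carried 71.0% of the Bmp6 UMIs. With classes taken from marker UMIs of each cell, 4 genes in place of 1 were past the fold in UP_Del_Alopecia against UP_Del_No_Alopecia, 1 in place of 3 in UP_Del_Alopecia against WT and 2 in place of 5 in UP_Del_No_Alopecia against WT. Directions turned there for Bmp4 in UP_Del_No_Alopecia against WT, to 0.04, and for Gli1 in UP_Del_Alopecia against WT, to 0.09, and with no cell filter for Bmp2 in UP_Del_Alopecia against WT, to 0.04.

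**Figure D4:**
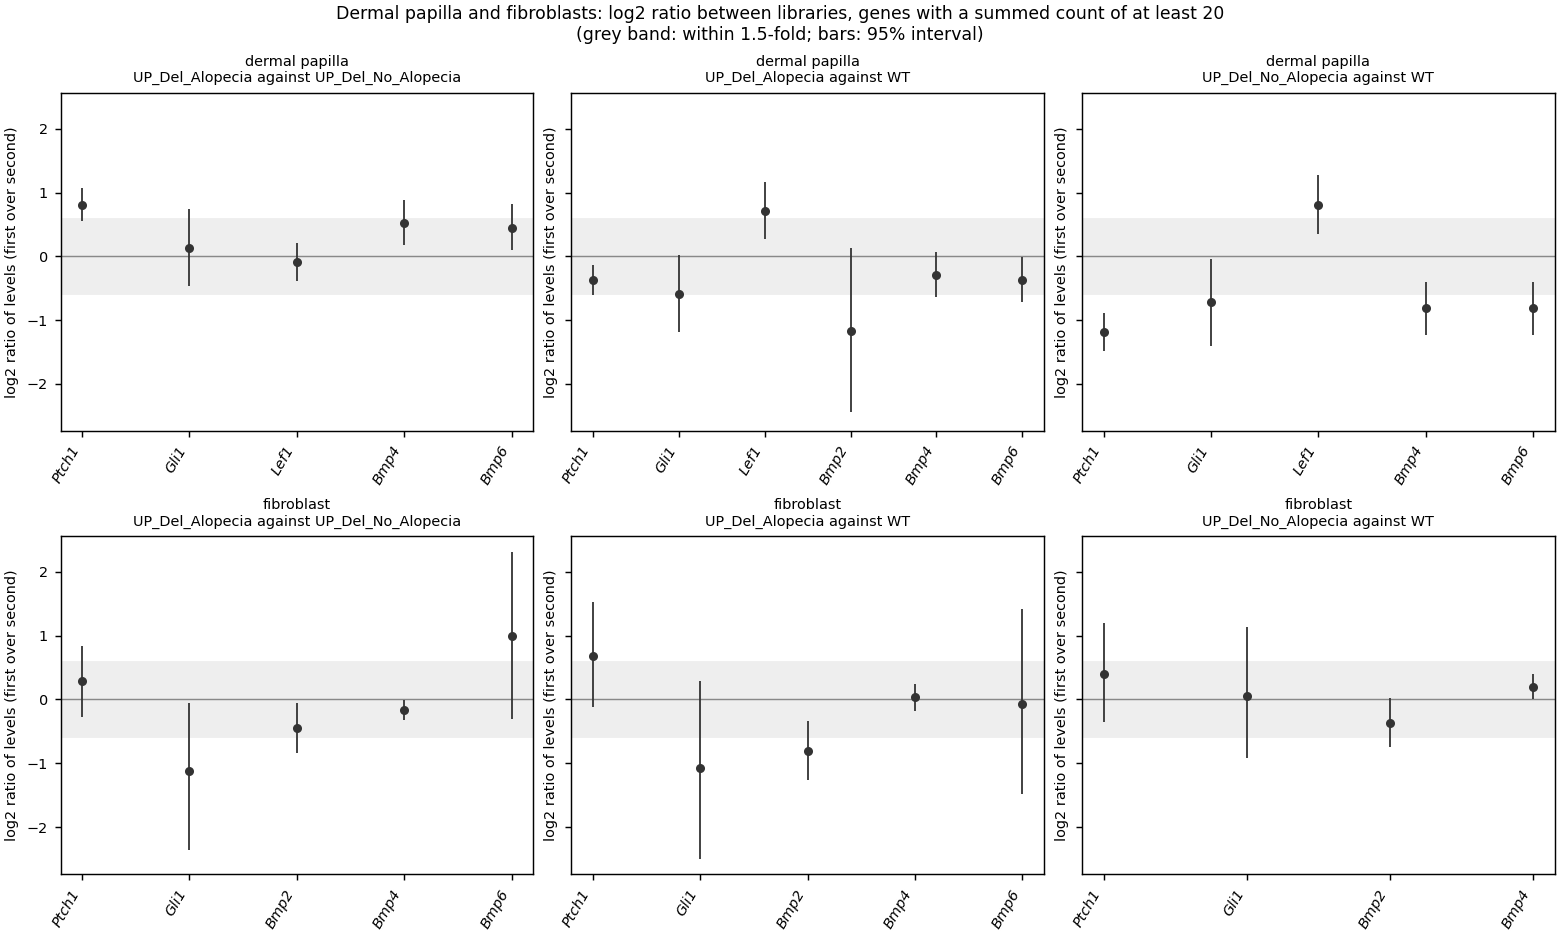
Log2 ratio between libraries in dermal papilla (top) and fibroblasts (bottom) for genes with 20 UMIs or more, in the same 3 comparisons, with 95% intervals and a grey band for 1.5-fold. In the papilla Ptch1 lies at 0.81 in UP_Del_Alopecia against UP_Del_No_Alopecia, -0.38 in UP_Del_Alopecia against WT and -1.19 in UP_Del_No_Alopecia against WT; in fibroblasts Bmp4 stays between -0.17 and 0.20.

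In fibroblasts (999 UP_Del_Alopecia, 2203 UP_Del_No_Alopecia and 628 WT cells), UP_Del_Alopecia against UP_Del_No_Alopecia had 2 of 5 past the fold, with 14.5% of all genes past it: Gli1 at -1.13 (9 UMIs in UP_Del_Alopecia, 36 in UP_Del_No_Alopecia) and Bmp6 at 1.00 (12 UMIs in UP_Del_Alopecia, 11 in UP_Del_No_Alopecia), both at levels that free RNA could carry. Against WT, UP_Del_Alopecia had 3 of 5 past it, with 14.4% of all genes, namely Gli1 at -1.07 and Ptch1 at 0.68, again at levels that free RNA could carry, and Bmp2 at -0.80 (-1.27 to -0.34), and UP_Del_No_Alopecia had 0 of 4, with 20.1% of all genes. Bmp4, the best measured with 489 UMIs in UP_Del_Alopecia, 1003 in UP_Del_No_Alopecia and 302 in WT, had ratios of -0.17 in UP_Del_Alopecia against UP_Del_No_Alopecia, 0.04 in UP_Del_Alopecia against WT and 0.20 in UP_Del_No_Alopecia against WT. Bmp2 in UP_Del_No_Alopecia against WT was -0.36, and -1.19 with no cell filter, -1.18 with at most 5% mitochondrial UMIs, -1.11 with finer clusters and -1.051 with classes from marker UMIs. The small cluster led by Rxfp1, which holds 5 UP_Del_Alopecia, 0 UP_Del_No_Alopecia and 30 WT cells, had 75 Bmp2 UMIs in WT; whether it entered the WT fibroblasts in those settings was not tested.

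The other genes of the 4 pathways, 145 in all, went both ways in each list in the joined follicle. There, in UP_Del_Alopecia against UP_Del_No_Alopecia, 4 of 18 counted Hedgehog genes were higher and 2 lower (median log2 ratio 0.14), 9 of 47 Wnt genes higher and 10 lower (0.07), 8 of 29 BMP genes higher and 9 lower (0.12), and 3 of 24 FGF genes higher and 8 lower (-0.16), beside a median of 0.11 over all genes. These counts use UMIs summed over the follicle classes. Bulge cells made up 166 of the 1525 cells in UP_Del_Alopecia and 1047 of the 3259 in UP_Del_No_Alopecia. The part of this class mix in the counts and in the genes named here was not tested. Higher were Gli3, a mediator of the Hedgehog pathway (118 CPM in UP_Del_Alopecia, 70.0 CPM in UP_Del_No_Alopecia), Msx2, a BMP target of the matrix (77.4 CPM in UP_Del_Alopecia, 32.3 CPM in UP_Del_No_Alopecia), and the receptor Fgfr2 (492 CPM in UP_Del_Alopecia, 282 CPM in UP_Del_No_Alopecia). Lower were the BMP antagonists Grem1 (9.78 CPM in UP_Del_Alopecia, 53.9 CPM in UP_Del_No_Alopecia) and Fst (116 CPM in UP_Del_Alopecia, 238 CPM in UP_Del_No_Alopecia), the BMP target Id1 (194 CPM in UP_Del_Alopecia, 379 CPM in UP_Del_No_Alopecia), the Wnt-related Dkk3 (13.04 CPM in UP_Del_Alopecia, 39.1 CPM in UP_Del_No_Alopecia) and Wnt16 (1.85 CPM in UP_Del_Alopecia, 8.01 CPM in UP_Del_No_Alopecia), and the FGF carrier Fgfbp1 (43.0 CPM in UP_Del_Alopecia, 117 CPM in UP_Del_No_Alopecia). In WT, Gli3 had 110 CPM, Msx2 88.2 CPM, Fgfr2 516 CPM, Grem1 11.9 CPM and Fst 95.9 CPM. Id1 had 323 CPM in WT, Dkk3 11.15 CPM, Wnt16 1.96 CPM and Fgfbp1 53.6 CPM. For each of these genes but Id1, the WT value lay nearer to UP_Del_Alopecia than to UP_Del_No_Alopecia.

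In the upper follicle alone, the largest follicle class, the same comparison went mostly one way: 1 of 15 Hedgehog genes was higher and 5 lower (median -0.38), 1 of 40 Wnt genes higher and 14 lower (-0.22), 0 of 25 BMP genes higher and 8 lower (-0.42), and 1 of 18 FGF genes higher and 10 lower (-0.72). Over all genes there 8.07% were higher and 12% lower, with a median of -0.03. The class joins 2 clusters that differed in share between the libraries, and the part of this in the counts was not tested. Against WT, upper follicle cells of UP_Del_Alopecia had 2 of 13 Hedgehog genes higher and 0 lower, 1 of 37 Wnt genes higher and 2 lower, 0 of 18 BMP genes higher and 3 lower, and 0 of 16 FGF genes higher and 4 lower.

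In the papilla the same comparison, with 14.6% of all genes higher and 14.4% lower, had 15 of 35 Wnt genes higher and 5 lower (median 0.23), 2 of 12 Hedgehog genes higher and 1 lower (0.25), 4 of 23 BMP genes higher and 5 lower (-0.07), and 6 of 16 FGF genes higher and 3 lower (0.36), beside -0.03 over all genes. The Wnt inhibitor Dkk2 had 299 CPM in UP_Del_Alopecia and 109 CPM in UP_Del_No_Alopecia, the Wnt enhancer Rspo4 756 CPM in UP_Del_Alopecia and 339 CPM in UP_Del_No_Alopecia, and Sfrp2, a Wnt-binding protein, 693 CPM in UP_Del_Alopecia and 314 CPM in UP_Del_No_Alopecia. The papilla growth factor Fgf7 had 1198 CPM in UP_Del_Alopecia and 792 CPM in UP_Del_No_Alopecia. Lower were the BMP target Id3 (878 CPM in UP_Del_Alopecia, 1493 CPM in UP_Del_No_Alopecia), the receptor Bmpr1a (83.7 CPM in UP_Del_Alopecia, 162 CPM in UP_Del_No_Alopecia) and Scube3, which helps release Hedgehog ligand (327 CPM in UP_Del_Alopecia, 519 CPM in UP_Del_No_Alopecia). In WT, Dkk2 had 197 CPM, Rspo4 624 CPM, Sfrp2 1095 CPM, Fgf7 834 CPM, Id3 1813 CPM, Bmpr1a 124 CPM and Scube3 299 CPM.

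In fibroblasts, where 7.54% of all genes were higher and 6.92% lower in UP_Del_Alopecia than in UP_Del_No_Alopecia, 0 of 14 Hedgehog genes were higher and 1 lower (median -0.03), 5 of 41 Wnt genes higher and 2 lower (-0.0035), 3 of 28 BMP genes higher and 4 lower (-0.02), and 3 of 22 FGF genes higher and 2 lower (0.04), beside -0.02 over all genes. Sfrp4, a Wnt-binding protein, had 44.0 CPM in UP_Del_Alopecia and 4.58 CPM in UP_Del_No_Alopecia, Dkk2 152 CPM in UP_Del_Alopecia and 76.2 CPM in UP_Del_No_Alopecia, and Fgfr2 491 CPM in UP_Del_Alopecia and 255 CPM in UP_Del_No_Alopecia. Sfrp2 had 34 UMIs in UP_Del_Alopecia and 0 in UP_Del_No_Alopecia. The BMP target Id2 was lower (38.3 CPM in UP_Del_Alopecia, 73.9 CPM in UP_Del_No_Alopecia). In WT, Sfrp4 had 17.75 CPM, Dkk2 195 CPM, Fgfr2 504.5 CPM and Id2 35.1 CPM, and Sfrp2 had 16 UMIs.

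Across 65 points of class and library (23 classes), the genes whose log2 level tracked each member most closely were named as a description; the points share libraries, and depth differs between classes. Shh was nearest to the inner root sheath keratins Krt27 (Pearson r 0.87) and Krt25 (0.86), and Lef1 to its neighbour Lef1os1 (0.97). Ptch1 was nearest to the papilla gene Wif1 (0.74), Gli1 to Ror2 (0.84), and Bmp6 to Fndc3a (0.69) and Ptch1 (0.69). Bmp4 was nearest to Robo1 (0.76), Wnt10a to Cnksr1 (0.81), Fgf18 to Shisal2b (0.74), Fgf5 to Foxe1 (0.78) and Bmp2 to Zswim4 (0.62). Bmp2 had the lowest top correlation of the 10 members.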

How the data were processed

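Single-cell RNA of CD45-negative skin cells was measured in 3 libraries, 1 per group, and that of CD45-positive cells in 3 more, used only for whole-library levels. The authors deposited UMI counts per gene and barcode, made with Cell Ranger 7.1.0 on mm10 per the submitters' processing notes. Each CD45-negative library had 25735064 to 116334373 UMIs. Barcodes with at least 500 UMIs, 300 genes and at most 10% mitochondrial UMIs were kept, and the barcodes with the highest Scrublet doublet scores were removed at 0.4% per 1000 barcodes. Cells were clustered with scanpy 1.11.5 on 2000 variable genes without the 10 members, with 30 components, 15 neighbours and Leiden resolution 1.0, and the 29 clusters were named by hand from marker lists; 7 stayed unnamed. Levels are CPM of counts summed per class, with exact Poisson intervals, and ratios carry exact conditional binomial intervals (scipy 1.17.1), all at 95% and for counting error only. A count of 0 was set to a floor of 3 in ratios. Classes under 20 cells in a library were left out of ratios. Up to 3 pathway genes each way and list were eligible to be named, ranked by the interval bound nearer to no change. Intervals and ratios were tested on simulated data. The members and lists were chosen with earlier results of these data known. The alternatives were no cell filter, a 5% mitochondrial limit, other doublet settings, Leiden resolution 2.0, classes from marker UMIs, means over cells, median scaling and equal class weights.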

Additional observations from a re-analysis of the deposited data

Results flagged for a closer look

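Bmp4 in the CD45-positive sort, which no comparison uses, was above the WT level in 1 library. Over all deposited barcodes it had 5.17 CPM in UP_Del_Alopecia (259 UMIs), 7.01 CPM in UP_Del_No_Alopecia (141 UMIs, interval 5.90 to 8.27) and 4.999 CPM in WT (192 UMIs, interval 4.32 to 5.76). The UP_Del_No_Alopecia interval was clear of the WT one. Each value is 1 library with no replicate.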

How the results depend on the processing

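No paired analysis was possible because each group had 1 library per sort. The cause of the changes below was not tested. Of the members' ratios, 198 of 200 kept direction and size with Leiden resolution 2.0, 193 of 199 with at most 5% mitochondrial UMIs, 180 of 199 with no cell filter, 187 of 200 with no doublet removal, 152 of 166 with doublets at 0.8%, 199 of 201 with median scaling, 173 of 201 with means over cells, 93 of 173 with classes from marker UMIs and 8 of 30 with equal class weights, an alternative chosen after seeing the data. Classes from marker UMIs turned the direction of 14 log2 ratios. For UP_Del_Alopecia against UP_Del_No_Alopecia these were Gli1 0.76 and Ptch1 0.99 in companion cells, Wnt10a -0.55 there, and Lef1 0.67 and Wnt10a 0.27 in the bulge. For UP_Del_Alopecia against WT they were Gli1 0.090 in the papilla, Ptch1 -0.44 in fibroblasts, and Shh 0.66 in the joined follicle and 0.75 in companion, inner root sheath and shaft joined. For UP_Del_No_Alopecia against WT they were Bmp4 0.040 in the papilla and -0.19 in the shaft, Gli1 -0.71 and Ptch1 -0.16 in companion cells and Lef1 -0.24 in the bulge. With no cell filter, Bmp2 in the papilla of UP_Del_Alopecia against WT came to 0.040, Bmp4 in the shaft of UP_Del_Alopecia to 0.087 against UP_Del_No_Alopecia and to -0.24 for UP_Del_No_Alopecia against WT, and Wnt10a in companion cells of UP_Del_Alopecia against UP_Del_No_Alopecia to -0.82 (-0.62 with no doublet removal). In that comparison Ptch1 in companion cells was 0.017 at 5% mitochondrial UMIs, and Bmp4 in the upper follicle was 0.002379 with doublets at 0.8% and 0.11 as a mean over cells. Equal weights gave Bmp4 in the joined follicle -0.39 in UP_Del_Alopecia against UP_Del_No_Alopecia and 0.47 in UP_Del_No_Alopecia against WT, where Ptch1 was 0.058. The count of members past the fold in the papilla was 0 (5% mitochondrial UMIs), 3 (no doublet removal) and 4 (marker classes) in place of 1 for UP_Del_Alopecia against UP_Del_No_Alopecia, 1 in place of 3 for UP_Del_Alopecia against WT and 2 in place of 5 for UP_Del_No_Alopecia against WT, the last 2 with marker classes. In fibroblasts it was 1 in place of 2 with Leiden resolution 2.0 or marker classes, 1 in place of 3 with no cell filter or means over cells, and, for UP_Del_No_Alopecia against WT, 1 or 2 in place of 0. In the joined follicle of UP_Del_Alopecia against UP_Del_No_Alopecia it was 2 in place of 6 with equal weights. With doublets at 0.8% the papilla kept 41 UP_Del_Alopecia, 9 UP_Del_No_Alopecia and 13 WT cells and gave no value. Depth limits the papilla of WT, with 23 cells, and Shh, where 12 to 28 cells per library carry all UMIs of the class.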

Other observations

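Of the classes with 20 cells or more in a library, Bmp2 was highest in mural or smooth muscle cells in UP_Del_Alopecia, in blood endothelial cells in UP_Del_No_Alopecia and in the unnamed stroma led by Rxfp1 in WT. That stroma had 173 CPM in UP_Del_Alopecia (8 UMIs, 5 cells) and 236 CPM in WT (75 UMIs, 30 cells), and held 0 cells of UP_Del_No_Alopecia. Mural or smooth muscle cells had 134 CPM in UP_Del_Alopecia (35 cells), 76.9 CPM in UP_Del_No_Alopecia (165 cells) and 0 CPM in WT (27 cells, upper bound 30.3 CPM). Blood endothelial cells had 45.1 CPM in UP_Del_Alopecia (9 of 294 cells with a UMI), 93.9 CPM in UP_Del_No_Alopecia (48 of 691) and 20.8 CPM in WT (9 of 213). The 5 highest endothelial cells held 92.7% of the UMIs in UP_Del_Alopecia, 34.0% in UP_Del_No_Alopecia and 77.8% in WT. Bmp6 in the same endothelial cells was 52.5 CPM in UP_Del_Alopecia, 17.9 CPM in UP_Del_No_Alopecia and 53.2 CPM in WT. In the hair shaft Bmp6 had 53 UMIs in UP_Del_Alopecia, 1 in UP_Del_No_Alopecia and 6 in WT, and 5 cells held 67.9% of those in UP_Del_Alopecia.

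In the subcluster of the hair shaft led by Krt35, Wnt10a had 71.3 CPM in UP_Del_Alopecia, 158 CPM in UP_Del_No_Alopecia and 53.5 CPM in WT, the order opposite to that of Lef1 in the same cells for UP_Del_No_Alopecia, which had 19 cells there. Lef1 in whole CD45-positive libraries was 9.99 CPM in UP_Del_Alopecia, 5.72 CPM in UP_Del_No_Alopecia and 18.9 CPM in WT; T cells also use this gene.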
